A study of Mus musculus with 30 samples.

Results

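The genes described here are the Hox genes, taken as every gene whose symbol is Hox followed by a cluster letter (a to d) and a paralogue number in the annotation of the 3 chips, measured by probe sets that name that gene alone. There were 33 such genes of 15964 genes in all, with 54 probe sets between them: 10 of the Hoxa cluster on chromosome 6, 10 of the Hoxb cluster on chromosome 11, 6 of the Hoxc cluster on chromosome 15 and 7 of the Hoxd cluster on chromosome 2. Hox genes with no probe set of their own were not analysed here. By position, 9 of the 33 genes were 3-prime members (paralogues 1 to 4), 11 were middle members (5 to 8) and 13 were 5-prime members (9 to 13).

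A mouse embryonic stem (ES) cell line derived from strain 129 was differentiated towards neural cells as floating aggregates in serum-free medium (the SFEB culture), and RNA of sorted cells was hybridised to the A, B and C chips of the Affymetrix U74 version 2 set. All 10 samples came from this line, which carries a green fluorescent reporter of Sox1, a gene of early neuroectoderm, so that the ES cells carry it too. There were 7 aggregate samples of 1 each: Sox1-positive cells of day 3, day 4 and day 5, day 2 E-cadherin-negative cells, day 1 cells with no sort named in the labels, day 2 E-cadherin-positive cells and day 3 Sox1-negative cells. The 3 ES samples were sorted as E-cadherin-positive, E-cadherin being a surface adhesion protein of undifferentiated cells, and nothing in the labels says that they were separate cultures, so p-values measure only the spread between these samples. No retinoic acid and no growth factor is named among the additions to the differentiation medium.

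Hox genes encode homeodomain transcription factors that give cells their place along the head-to-tail axis. They lie in clusters, and the genes at the 3-prime end are switched on first in the embryo and reach furthest forward, into the hindbrain, while the 5-prime genes come later and stay in the trunk and tail. The order is thus one of time as well as of place, retinoic acid is a well-known inducer of the 3-prime genes, and Hox proteins bind DNA together with TALE homeodomain partners of the Pbx and Meis families.

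Intensities are the linear values as deposited, with a median of 176 to 277 on each of the 30 arrays. The number of arrays limits the precision. Marker genes were set against the labels. In Sox1-positive cells 5 of 6 ES cell markers fell against ES cells and 5 of 8 neural progenitor markers rose. Of all genes tested 6.17% fell and 6.4% rose. Sox1 itself rose by 0.83 on the log2 scale (adjusted p = 0.0229 by limma), but its signal hardly parted the sorts. It read 308, 310 and 252 in Sox1-positive cells of days 3, 4 and 5 and 241 in day 3 Sox1-negative cells. Day 2 E-cadherin-positive and E-cadherin-negative cells read 253 and 251. The ratio of the 3-prime to the 5-prime probe set of actin, a sign of RNA quality, was highest in ES 3 on each chip (1.70 on the A chip), with 1.34 in day 5 Sox1-positive cells, 1.33 in day 2 E-cadherin-negative cells and 0.939 to 1.15 in the other samples of that chip.

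Sequence upstream of the start was at hand for 20 of the 33 genes (RefSeq, GRCm38.p6), and 3 windows are shown because these are genes that rose in Sox1-positive cells and because motifs for Hox partners or for nuclear receptors, the class of the retinoic acid receptors, were found in them. Each is 250 bases long, 5′ to 3′ on the strand of the gene, and ends at the base before the start in the RefSeq promoter table, which for Hoxb1 lies a few bases inside the outer bound of its gene model; capitals mark the motif found.
Hoxa2, chr6:52164832-52165081, minus strand: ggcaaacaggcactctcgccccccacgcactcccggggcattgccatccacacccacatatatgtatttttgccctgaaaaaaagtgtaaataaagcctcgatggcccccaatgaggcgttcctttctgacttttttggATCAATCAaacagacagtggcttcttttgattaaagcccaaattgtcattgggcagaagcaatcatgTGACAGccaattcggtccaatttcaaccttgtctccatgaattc
Hoxb1, chr11:96365508-96365757, plus strand: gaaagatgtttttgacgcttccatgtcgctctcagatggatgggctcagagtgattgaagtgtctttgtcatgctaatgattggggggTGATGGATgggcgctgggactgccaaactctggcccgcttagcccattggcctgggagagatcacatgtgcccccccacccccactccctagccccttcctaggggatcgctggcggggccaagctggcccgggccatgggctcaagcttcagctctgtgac
Hoxb4, chr11:96318017-96318266, plus strand: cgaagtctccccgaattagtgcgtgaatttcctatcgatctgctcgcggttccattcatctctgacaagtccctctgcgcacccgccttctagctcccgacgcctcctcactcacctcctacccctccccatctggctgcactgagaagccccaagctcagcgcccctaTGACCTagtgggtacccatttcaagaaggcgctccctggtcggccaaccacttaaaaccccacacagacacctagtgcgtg

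Both strands were searched for TGATNNAT (a joint Pbx and Hox site), TGACAG (a Meis site) and AGGTCA (a nuclear receptor half-site), motifs that do not contain one another. The Hoxa2 window held ATCAATCA, which is TGATNNAT on the other strand, 111 bases before the start and TGACAG 44 bases before it. The Hoxb1 window held TGATGGAT 162 bases before the start; in mouse embryos this stretch is known as part of the element through which Hoxb1 sustains its own transcription with Pbx proteins. The Hoxb4 window held TGACCT, the other strand of AGGTCA, 81 bases before the start. Hoxa3 also had a Meis match, but the RefSeq start of its longest model lies between the starts of Hoxa6 and Hoxa7, so its window is not shown. Over the 22 windows of measured Hox genes the Pbx and Hox motif occurred in 18.18%, the Meis motif in 9.09% and the half-site in 18.18%, beside 6.68%, 15.4% and 12.8% of the 21262 windows of protein-coding genes. A match is a run of letters and no measured binding.

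Between Sox1-positive cells and ES cells, which is the main contrast of the design, the Hox genes that rose were all at the 3-prime end, and none fell. Hoxa2, Hoxa3, Hoxb1, Hoxb2 and Hoxb4 were higher by 1.86 to 3.83 on the scale of log2 of the intensity plus 16, on which all log2 values here are given. These are genes of the hindbrain and of the neck region of the spinal cord in the embryo. Of the 21 Hox genes bright enough to be tested, 5 rose, 0 fell and 16 did not pass limma's test at an adjusted p under 0.05. Of all 12934 genes tested 6.4% rose and 6.17% fell. Bright enough means a mean intensity over all 10 samples at or above the 30th percentile of the chip. Samples in which a gene was high thus helped it to be tested, which favours a count of rises. Both probe sets of Hoxa3 had ES means (103 and 73.4) under the level of their chips (117 and 78.6). As the intensities come from many cells together, more cells with a transcript and more transcript in each cell cannot be told apart.

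Hoxb2, a gene of rhombomeres 3 to 5 that helps to pattern facial motor neurons, had the lowest adjusted p of the Hox genes. Its intensity was 4604, 10435 and 5602 in Sox1-positive cells of day 3, day 4 and day 5, against 551, 883 and 926 in ES cells. Day 1, day 2 E-cadherin-positive and day 3 Sox1-negative cells gave 1288, 785 and 742, and day 2 E-cadherin-negative cells 4382. The groups were far apart, with the lowest Sox1-positive value above every ES, day 1, E-cadherin-positive and Sox1-negative value. Means were 6880 ± 3118 in Sox1-positive cells and 787 ± 206 in ES cells (SD, n = 3 each), a difference of 3.05 on the log2 scale (SE 0.35, adjusted p = 0.00224 by limma), and the call held under all 17 alternatives tried for it.

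Hoxb1, which marks rhombomere 4 and acts early in hindbrain patterning, had intensities of 415, 381 and 649 in Sox1-positive cells of days 3, 4 and 5, against 107, 120 and 127 in ES cells. It was near the ES level on day 1 (114), between the groups in day 2 E-cadherin-positive (219) and day 3 Sox1-negative cells (211), and at 382 in day 2 E-cadherin-negative cells. Sox1-positive cells averaged 482 ± 146 and ES cells 118 ± 10.4 (SD, n = 3 each), and the difference of 1.86 (SE 0.23, adjusted p = 0.00281 by limma) was called under all 16 alternatives tried for it. Hoxb1 was the one tested 3-prime gene that also stood above all ES values in E-cadherin-positive and Sox1-negative cells, by 0.81 and 0.76 on the log2 scale, which did not pass the test (adjusted p = 0.51 and 0.65 by limma).

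Hoxa2, the gene that gives the second branchial arch and the anterior hindbrain their identity, had 2 probe sets. The brighter read 2115, 1825 and 2632 in Sox1-positive cells of days 3, 4 and 5, against 23.4, 249 and 329 in ES cells. The other read 726, 837 and 1034 in Sox1-positive cells against 171, 135 and 146 in ES cells. Neither probe set had overlapping groups, and in both the day 2 E-cadherin-negative sample (1409 and 562) lay between them. The ES values of the brighter probe set were spread over more than an order of magnitude, so that its larger difference of 3.83 (SE 0.78) had an adjusted p of 0.0244 by limma, while the tighter probe set gave 2.40 (SE 0.20, adjusted p = 0.000536). Day 1, E-cadherin-positive and Sox1-negative cells read 269, 35.2 and 152 in the brighter probe set. The call of that probe set was lost without ES 2, day 3, day 4 or day 5, with differences of 3.69 to 4.23 and adjusted p up to 0.0783 by limma.

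Hoxa3, needed for the third branchial arch and its thymus and parathyroid derivatives, read 795, 884 and 667 in Sox1-positive cells of days 3, 4 and 5 and 16, 35.1 and 259 in ES cells. The second probe set read 253, 173 and 132 in Sox1-positive cells, against 79.4, 71.3 and 69.6 in ES cells. Again there was no overlap in either, with day 2 E-cadherin-negative cells at 845 and 197 inside the Sox1-positive range. The differences were 3.37 (SE 0.70, adjusted p = 0.0215) and 1.13 (SE 0.24, adjusted p = 0.0211) by limma. ES 3, the array with the highest actin ratio, held the highest ES value of the first probe set and the lowest of the second. Leaving out ES 2, day 3, day 4 or day 5 ended the call of the first probe set (3.08 to 3.48, adjusted p up to 0.0824 by limma).

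Hoxb4, a gene of the posterior hindbrain that is also known from blood stem cells, had 4 probe sets that differed from each other. The brightest, whose suffix (_f) marks probes shared with similar sequences, read 1734, 3561 and 3116 in Sox1-positive cells of days 3, 4 and 5, against 402, 557 and 1146 in ES cells. The groups did not overlap, and the difference was 2.05 (SE 0.46, adjusted p = 0.0346 by limma). The other 2 tested probe sets of Hoxb4 did not pass the test, with 0.11 (adjusted p = 0.87) and -0.29 (adjusted p = 0.81) by limma. The fourth, below the level for testing, read 17.7, 83.1 and 38.9 in Sox1-positive cells against 19.2, 15.1 and 19.0 in ES cells, which overlap. With the mean over its probe sets the change of Hoxb4 was 0.66 and was not called, so the rise rests on 1 probe set. The call of that probe set was lost without ES 1, ES 2, day 4 or day 5 (1.72 to 1.95, adjusted p up to 0.117 by limma).

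Of the 3-prime genes that were tested, Hoxa4 and Hoxb3 did not pass. Hoxb3 read 106, 169 and 195 in Sox1-positive cells of days 3, 4 and 5 and 117, 94.0 and 124 in ES cells, so that day 4 and day 5 lay above the ES range and day 3 within it (0.40, SE 0.24, adjusted p = 0.35 by limma). Hoxa4 read 996, 711 and 1201 in Sox1-positive cells against 785, 1068 and 897 in ES cells, a bright probe set with wholly overlapping groups (0.06, SE 0.23, adjusted p = 0.92 by limma). The other tested probe sets of Hoxa4 changed by -0.08 and -0.03, and the one too dim to be tested by 1.02. Hoxc4 and Hoxd1, the remaining 3-prime genes, were too dim to be tested, at 12.4 to 101 in all 10 samples.

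**Figure D1:**
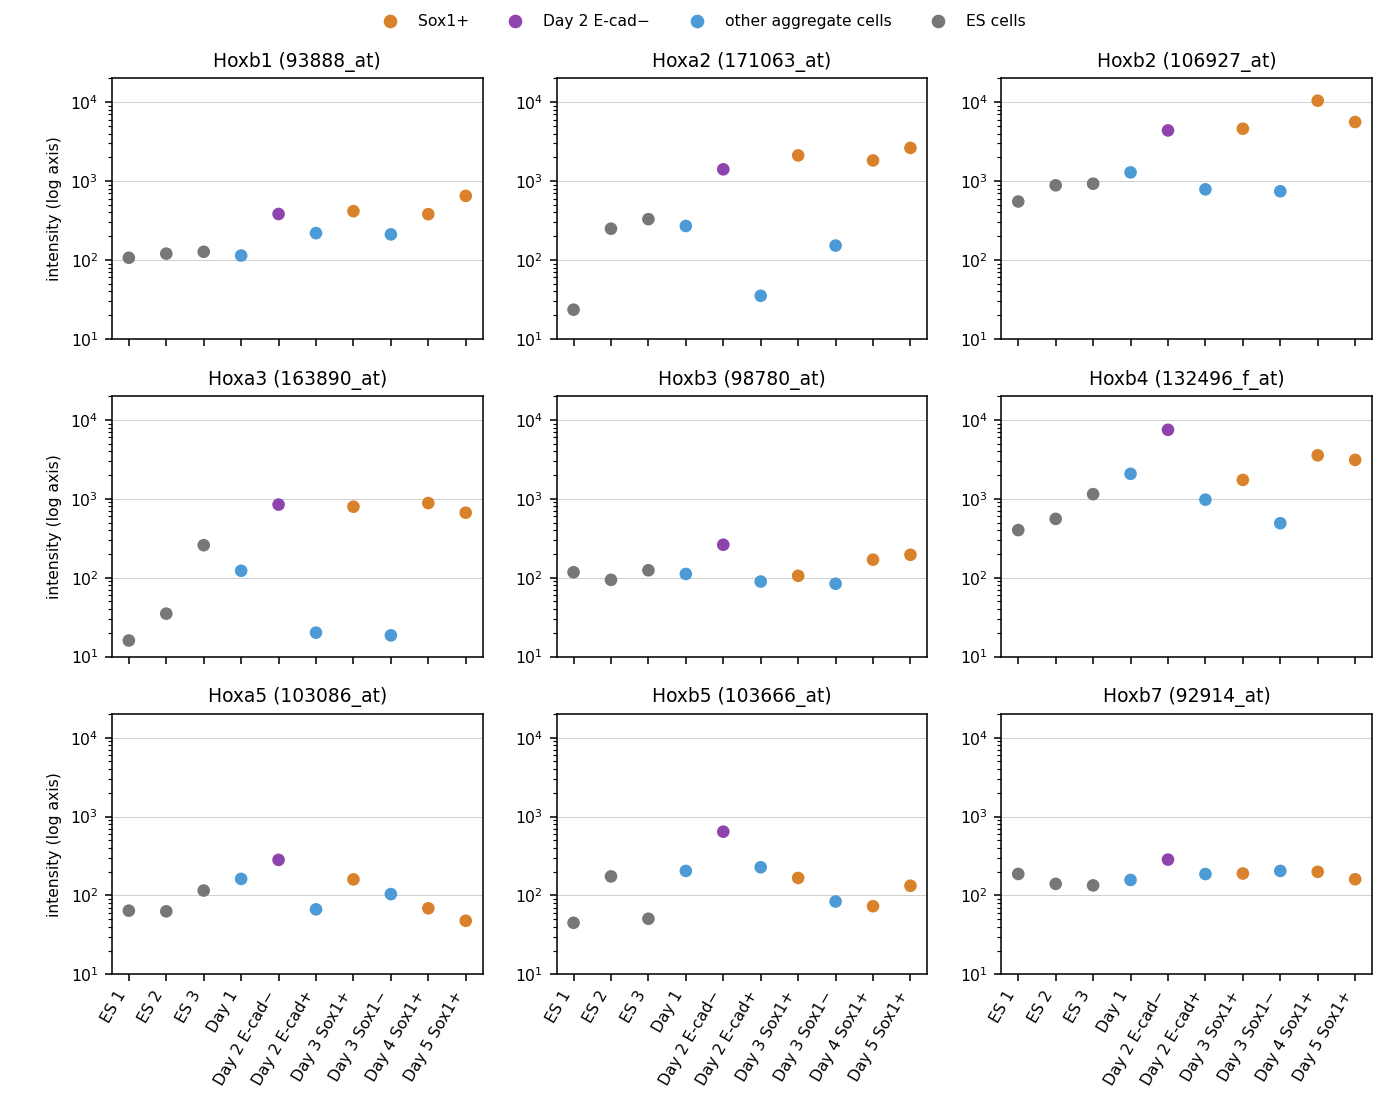
Intensity (log axis) of 9 Hox genes in each of the 10 samples, 1 point a sample and 1 probe set a gene, coloured by Sox1-positive, day 2 E-cadherin-negative, other aggregate and ES cells. Hoxb2 lies at 4604 to 10435 in Sox1-positive cells and at 551 to 926 in ES cells. Hoxb5 has its highest value, 644, in day 2 E-cadherin-negative cells and reads 45.1 to 228 in the other samples.

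None of the 10 middle genes tested passed between Sox1-positive and ES cells, and their changes lay between -0.30 and 0.57. Hoxb5, a gene of the cervical spinal cord, read 167, 73.1 and 133 in Sox1-positive cells of days 3, 4 and 5, against 45.1, 175 and 50.7 in ES cells. Hoxa5, which also acts in the lung, read 160, 68.9 and 47.8 in Sox1-positive cells, against 64.3, 63.0 and 116 in ES cells. Both overlapped between the groups. Hoxc5 was the one middle gene whose Sox1-positive values (143, 141 and 144) all lay above those of ES cells (119, 42.5 and 137), by a small margin and with an adjusted p of 0.37 by limma. Its second tested probe set went the other way (81.2, 32.1 and 93.8 in Sox1-positive cells against 117, 112 and 115 in ES cells, adjusted p = 0.20 by limma).

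The trunk genes Hoxb6, Hoxb7 and Hoxb8 did not pass either. Hoxb6 read 261, 275 and 216 in Sox1-positive cells against 299, 243 and 349 in ES cells, and Hoxb7 read 190, 200 and 161 in Sox1-positive cells against 188, 140 and 134 in ES cells. Hoxb8 read 336, 297 and 395 in Sox1-positive cells against 463, 221 and 273 in ES cells. All 3 overlapped between the groups, and a second probe set of Hoxb8, below the level for testing, read 12.3 to 87.2 in all samples.

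Hoxa6 (131, 150 and 124 in Sox1-positive cells against 182, 164 and 153 in ES cells) had all its Sox1-positive values below the ES range, without passing the test (adjusted p = 0.38 by limma). Hoxc8 (165, 184 and 274 in Sox1-positive cells against 205, 129 and 177 in ES cells) and Hoxd8 (256, 241 and 230 in Sox1-positive cells against 254, 333 and 320 in ES cells) overlapped. Hoxc6 overlapped as well, at 69.3, 86.8 and 69.3 in Sox1-positive cells and 27.6, 83.2 and 121 in ES cells. Hoxa7 was not tested, at 9.54 to 29.8 in all samples.

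Of the 13 genes at the 5-prime end, which act in the trunk, the limbs and the tail, 4 were bright enough to be tested and 0 were called, with changes between -0.53 and 0.03. Hoxc10 had the clearest trend, at 160, 260 and 195 in Sox1-positive cells of days 3, 4 and 5, against 308, 326 and 261 in ES cells, just without overlap (-0.53, SE 0.22, adjusted p = 0.20 by limma). Hoxc9 read 1252, 1083 and 1941 in Sox1-positive cells against 1364, 1427 and 1281 in ES cells. Its second probe set stayed at 19.6 to 46.7 in all samples, so the bright and flat signal belongs to 1 of its 2 probe sets.

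Hoxd10 read 278, 109 and 229 in Sox1-positive cells against 238, 175 and 235 in ES cells, and Hoxb13 read 409, 88.9 and 375 in Sox1-positive cells against 379, 337 and 182 in ES cells. Day 4 was the low value in both, and the groups overlapped. The other 9 genes of the 5-prime class (Hoxa9, Hoxa10, Hoxa11, Hoxa13, Hoxb9, Hoxd9, Hoxd11, Hoxd12 and Hoxd13) lay below the level for testing. Over all 12 Hox genes not tested the intensities ran between 1.87 and 150, the highest being Hoxd9 in ES 3.

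Over the whole set, and without the filter, Sox1-positive values lay above all ES values in 6 of 33 genes (15.1% of all genes) and below them in 4 (16.2% of all genes). The 6 were the 5 called genes and Hoxc5, and the 4 were Hoxa6, Hoxb9, Hoxc10 and Hoxd9. By class, the median difference of Sox1-positive minus ES cells was 1.86 in 3-prime, 0.11 in middle and -0.15 in 5-prime members, beside -0.01 over all genes. The border mattered to the first of these: it was 2.45 with paralogues 1 to 3 as the 3-prime class, 0.56 with 1 to 5, and 0.66 when every gene was the mean of its probe sets. By cluster, 2 of 5 tested Hoxa genes and 3 of 9 tested Hoxb genes rose, and 0 of 5 Hoxc and 0 of 2 Hoxd genes did. In Hoxc and Hoxd the only 3-prime genes with a probe set of their own were Hoxc4 and Hoxd1, both too dim to be tested. A tested probe set shared by Hoxd3 and Hoxd4 read 76.2, 125 and 66.8 in Sox1-positive cells against 116, 95.4 and 109 in ES cells, which overlap. With so few such genes a difference between clusters cannot be told apart from one of position.

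**Figure D2:**
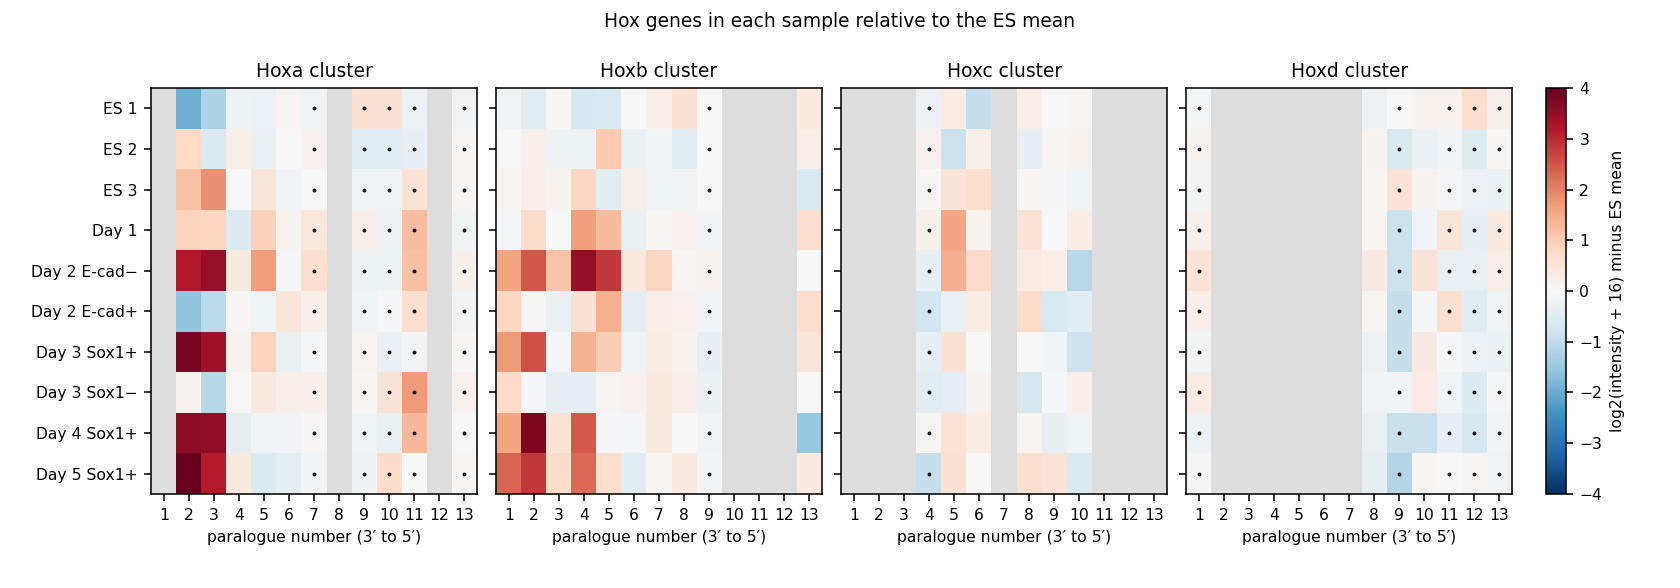
Difference of log2(intensity + 16) from the ES mean for every measured Hox gene (columns, by paralogue number within each cluster) in each sample (rows), in grey where no probe set names the gene alone and with a dot where the gene was too dim to be tested. Red gathers at paralogues 1 to 4 of Hoxa and Hoxb in Sox1-positive cells, up to 4.11 for Hoxa2 on day 5. It reaches paralogue 5 in day 2 E-cadherin-negative cells (2.84 for Hoxb5). Hoxb5 is less raised on day 1 (1.265) and in day 2 E-cadherin-positive cells (1.41).

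Each Sox1-positive day was also set against the ES samples on its own, in fits that share those ES samples and assume that a lone sample varies as they do. Hoxb1 and Hoxb2 were the 2 of 21 Hox genes called on each of day 3, day 4 and day 5, where 0.619%, 0.928% and 2.33% of all genes tested were called as higher and 1.18%, 1.25% and 2.81% as lower. No Hox gene was called as lower on these days. By size alone 5, 6 and 5 of the 33 Hox genes were higher than in ES cells by 1 or more on the log2 scale on days 3, 4 and 5, as were 6.99%, 8.07% and 9.05% of all genes. Hoxb2 differed from ES cells by 2.56, 3.74 and 2.84 on days 3, 4 and 5 (adjusted p = 0.0466, 0.0176 and 0.0205 by limma). Hoxb1 differed by 1.69, 1.57 and 2.31 (adjusted p = 0.0414, 0.0447 and 0.00969 by limma). The tighter probe set of Hoxa2 passed on all 3 days too, with 2.16, 2.36 and 2.66 (adjusted p = 0.0235, 0.0176 and 0.00781 by limma). All these calls of Hoxb1 and Hoxb2 were lost without ES 2, with counts of 0 on each day.

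Among the 3 Sox1-positive days 0 Hox genes had a slope on day that passed limma, as did 0 of all 12934 genes. At an unadjusted p under 0.05 there were 2 of 21 Hox genes, beside 1067 of all 12934 genes, and nothing is read from this count. The 2 were Hoxa5 with -0.73 per day (adjusted p = 0.46 by limma) and Hoxb3 with 0.40 per day (adjusted p = 0.58 by limma). Hoxa5 was thus highest on day 3 (160) and Hoxb3 on day 5 (195).

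The 4 aggregate samples that were not sorted as Sox1-positive served as a comparison that uses no ES sample. Against all 4, Hoxb2 came nearest to a call (2.24, SE 0.59, adjusted p = 0.0896 by limma), and 0 of 21 Hox genes passed in either direction, while 0.611% of all genes tested rose and 1.14% fell. At an unadjusted p under 0.05 there were 5 of the 21, beside 2849 of all 12934 genes tested, and nothing is read from this count. The 5 were Hoxa2, Hoxa3, Hoxb1 and Hoxb2, which were higher, and Hoxa6, which was lower. The day 2 E-cadherin-negative sample stood apart from the other 3. Without it 4 Hox genes rose (5.54% of all genes tested), and these were Hoxa2, Hoxa3, Hoxb1 and Hoxb2. As the sample left out had high values of these same genes, leaving it out favours such a rise. The p-values of that fit, given next, are thus no support beyond the comparison with all 4.

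Against those 3 samples Hoxa2 averaged 2190 ± 409 in Sox1-positive cells and 152 ± 117 in the others (SD, n = 3 each), 4.02 apart on the log2 scale (adjusted p = 0.0108 by limma). Hoxa3 averaged 782 ± 109 in Sox1-positive cells and 53.8 ± 59.6 in the others, with 3.83 between them (adjusted p = 0.00503 by limma). Hoxb2 differed by 2.81 (adjusted p = 0.00419 by limma) and Hoxb1 by 1.35 (adjusted p = 0.0293 by limma). Hoxb4, with a high value of 2075 on day 1 in the probe set used, differed by 1.41 and did not pass (adjusted p = 0.18 by limma). Day and sort are not balanced between these sides and cannot be told apart.

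In day 2 E-cadherin-negative cells raised Hox signal reached past paralogue 4, to Hoxa5 and Hoxb5. Hoxc5 was raised in the probe set used (274, with 305 on day 1). Its second tested one was not raised (126, against 112 to 117 in ES cells). Values of Hoxa5 and Hoxb5 above the ES range were not confined to this sample, though they were lower elsewhere. Hoxb5 read 205 on day 1 and 228 in day 2 E-cadherin-positive cells, against 45.1 to 175 in ES cells. Hoxa5 read 162 on day 1 and 160 in day 3 Sox1-positive cells, against 63.0 to 116 in ES cells. Of the 33 genes, 14 had their highest value of all 10 samples in day 2 E-cadherin-negative cells (10.5% of all genes did). They were 7 of 11 middle, 4 of 9 3-prime and 3 of 13 5-prime members. Hoxa7, Hoxa13, Hoxb9 and Hoxd1 among them were too dim to be tested. Of the 21 tested Hox genes 10 had their highest value there, as did 9.15% of all genes tested. Against ES cells 10 of the 33 were higher by 1 or more on the log2 scale, where 7.33% of all genes were, and in day 1, day 2 E-cadherin-positive and day 3 Sox1-negative cells 4, 1 and 1 were (3.38%, 3.95% and 3.83% of all genes). The median difference from ES cells in this sample was 1.58 in 3-prime, 0.67 in middle and -0.02 in 5-prime members, beside 0.07 over all genes. Hoxb4, Hoxa3, Hoxa2 and Hoxb5 differed most, by 3.52, 3.49, 3.22 and 2.84, followed by Hoxb2 (2.49), Hoxa5 (1.67), Hoxb1 (1.58), Hoxc5 (1.44), Hoxa11 (1.20, not tested) and Hoxb3 (1.13).

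With 1 sample on this side limma called 0 of 21 Hox genes against ES cells, where 0.0155% of all genes tested were called as higher and 0.00773% as lower. Hoxb1, the Hox gene nearest to a call, was higher by 1.58 on the log2 scale. The Hoxc10 value went the other way, with 129 in day 2 E-cadherin-negative cells and 261 to 326 in ES cells.

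Set against the Sox1-positive cells of the later days, the day 2 E-cadherin-negative sample stood lower in some Hox genes and higher in others. Its intensity over the Sox1-positive mean was 0.643 for Hoxa2, 0.637 for Hoxb2 and 0.794 for Hoxb1, so these genes were brighter in the later cells. It was 1.08 for Hoxa3 and 1.67 for Hoxb3, and it was 2.67 for Hoxb4, 3.07 for Hoxa5 and 5.18 for Hoxb5. Hoxb5 read 644 in day 2 E-cadherin-negative cells and 73.1 to 167 in Sox1-positive cells, and Hoxa5 read 283 in day 2 E-cadherin-negative cells and 47.8 to 160 in Sox1-positive cells. Among other members the ratio was 1.24 for Hoxa4, 1.92 for Hoxc5, 1.55 for Hoxb6, 1.55 for Hoxb7 and 0.963 for Hoxb8, and 2.10 for Hoxd1 and 1.01 for Hoxc4, both too dim to be tested. Whether the ratio goes with paralogue number was not tested.

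This comparison was added after the values had been seen, and in it 0 of 21 Hox genes and 0 of all 12934 genes passed limma (888 genes had an unadjusted p under 0.05). Hoxb5 differed by 2.30 (SE 0.64, adjusted p = 0.50 by limma) and Hoxa5 by 1.60 (SE 0.54, adjusted p = 0.62 by limma). Hoxb4 was higher in 2 of its 4 probe sets: the brightest read 7490 in day 2 E-cadherin-negative cells and at most 3561 in Sox1-positive cells, and the dim one 279 in day 2 E-cadherin-negative cells and at most 83.1 in Sox1-positive cells. Of its other probe sets, 1 ran the opposite way (55.8 in day 2 E-cadherin-negative cells and 72.3 to 352 in Sox1-positive cells) and 1 was nearly level, with a ratio of 1.05. One probe set of Hoxa4, dimmer than the one used for the gene, read 433 in day 2 E-cadherin-negative cells, 166 to 173 in Sox1-positive cells and 144 to 207 in ES cells.

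**Figure D3:**
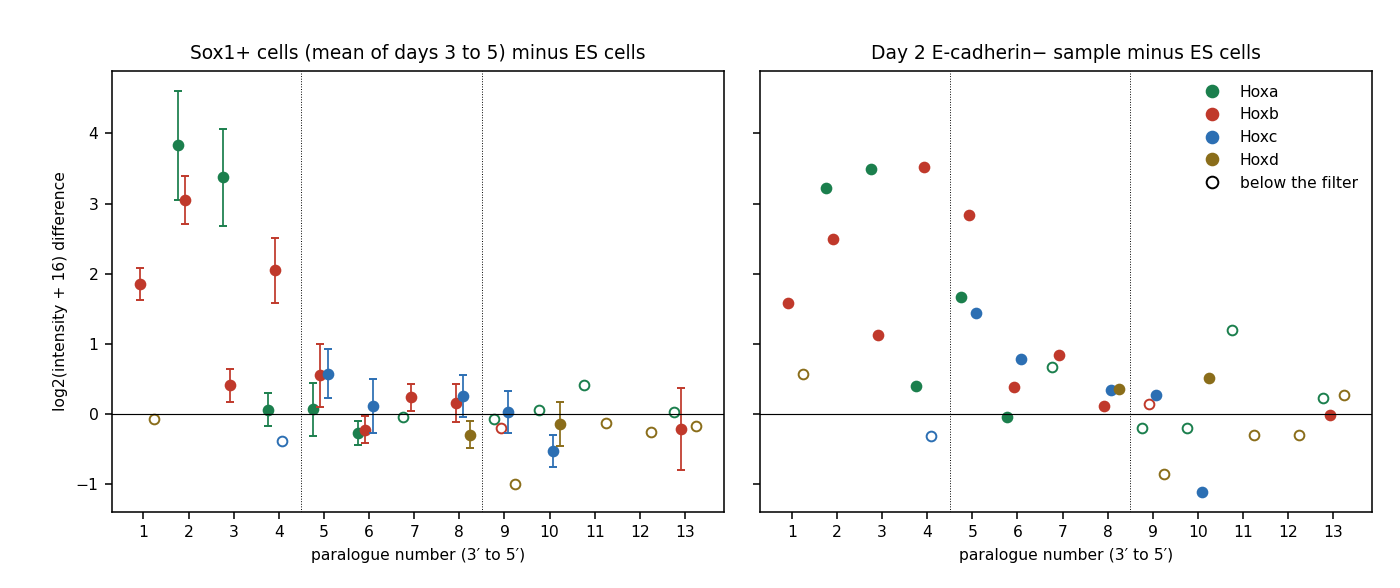
Difference of log2(intensity + 16) from ES cells by paralogue number, for the mean of the Sox1-positive samples (left; bars are the standard error of limma) and for the single day 2 E-cadherin-negative sample (right; no error can be given), 1 point a gene, coloured by cluster and open where too dim to be tested. Dotted lines part the 3-prime, middle and 5-prime classes: in Sox1-positive cells Hoxa5 (0.06) and Hoxb5 (0.55) are near 0, and in day 2 E-cadherin-negative cells they reach 1.67 and 2.84.

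The 2 sorts within a day had 1 sample on each side and got no test. At day 2, 8 of 33 Hox genes were higher by 1 or more on the log2 scale in E-cadherin-negative than in E-cadherin-positive cells (7.86% of all genes) and 0 were lower (5.43%). They were Hoxa2, Hoxa3, Hoxb2, Hoxb3 and Hoxb4 of the 3-prime class and Hoxa5, Hoxb5 and Hoxc5 of the middle class. Hoxb2 gave 5.58 times the intensity in E-cadherin-negative cells and Hoxb5 2.83 times. The probe sets used for Hoxa2 and Hoxa3 read 1409 and 845 in E-cadherin-negative cells and 35.2 and 20.1 in E-cadherin-positive cells, the second values being below the level for testing on their chips. The second probe sets of these genes gave 4.48 and 2.86 times. Hoxb4 gave 7.67 times in the probe set used and 1.02 and 0.591 times in its other tested ones. The second tested probe set of Hoxc5 gave 1.02 times. Hoxa4, not among the 8, gave 1.27 times in the probe set used and 4.69 and 1.11 times in its other tested ones.

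At day 3, 4 of 33 were higher in Sox1-positive than in Sox1-negative cells (7.14% of all genes) and 2 were lower (8.65%). The higher ones were Hoxa2, Hoxa3, Hoxb2 and Hoxb4, all 3-prime. Hoxb2 was 6.20 times as bright in Sox1-positive cells, and Hoxa2 13.9 times with the probe set used and 5.46 times with the other. The probe set used for Hoxa3 read 795 in Sox1-positive and 18.6 in Sox1-negative cells, the second value being below the level for testing, and the other gave 3.00 times. Hoxb4 was 3.54 times as bright in the probe set used, and 0.741 and 1.85 times in its other tested ones. Just short of the limit of 1 on the log2 scale were the middle genes Hoxc5 (2.17 times) and Hoxb5 (1.99 times) and the 3-prime gene Hoxb1 (1.97 times). The second tested probe set of Hoxc5 went the other way, with 0.626 times. The lower ones were Hoxc10, with 160 in Sox1-positive and 347 in Sox1-negative cells, and Hoxa11, with 16.9 and 99.7. Hoxa11 was too dim to be tested. Both are 5-prime genes, but nothing is read from this count of 2 beside the share of 8.65%.

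Day 1 cells had no Hox call against ES cells, nor did any other gene pass there (812 of all genes had an unadjusted p under 0.05). At that unadjusted threshold stood Hoxa5 (0.92, adjusted p = 0.77 by limma) and Hoxc5 (1.59, adjusted p = 0.74 by limma). Hoxb4 read 2075 on day 1 in the probe set used, above ES cells (402 to 1146). Its other tested probe sets lay within the ES range on day 1, at 433 (ES 400 to 632) and 151 (ES 149 to 322). The one too dim to be tested read 42.3, against 15.1 to 19.2 in ES cells. In day 2 E-cadherin-positive and day 3 Sox1-negative cells no Hox gene was called either. Hoxb1, the nearest to a call in both, was higher than in ES cells by 0.81 and 0.76 on the log2 scale. All 4 aggregate samples outside the Sox1-positive sorts together against ES cells gave 0 Hox calls as well (0.00773% of all genes tested were higher and 0.0232% lower). Hoxb1 (0.78) and Hoxb5 (1.41) stood at an unadjusted p under 0.05 (adjusted p = 0.45 and 0.46 by limma), as did 1298 of all 12934 genes.

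Several probe sets were at hand for 15 of the 33 genes, and between Sox1-positive and ES cells they had 1 sign in 5 genes and opposite signs in 10. Hoxa2 and Hoxa3 were among the 5, with all their probe sets higher by more than 1. Some of the opposite signs were small changes around 0, such as 0.06 and -0.27 for Hoxa6, and others were larger, up to 1.02 for Hoxa4, 1.08 for Hoxd10 and -1.01 for Hoxd9, each in a probe set too dim to be tested, and -0.70 for Hoxc5 in a tested one. Hoxb4 was the gene with the widest disagreement, between -0.29 and 2.05, and in day 2 E-cadherin-negative cells between -1.65 and 3.52.

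**Figure D4:**
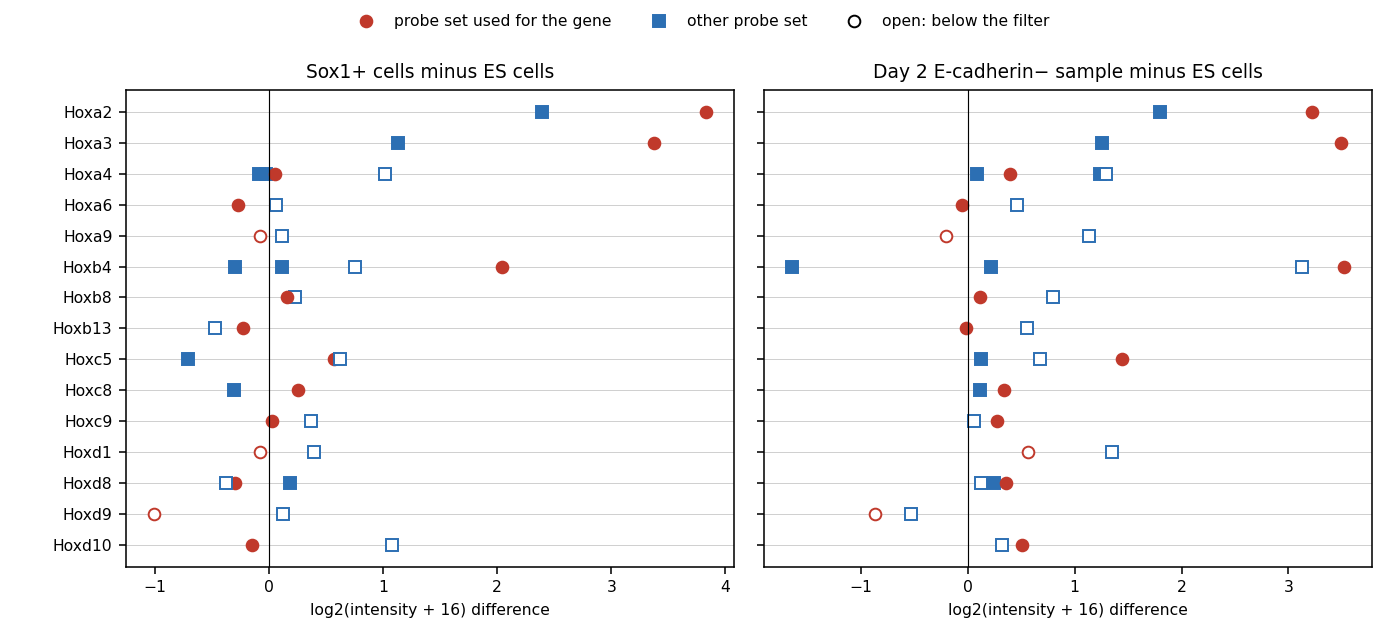
Difference of log2(intensity + 16) from ES cells for each probe set of the 15 Hox genes that have several, in Sox1-positive cells (left) and in day 2 E-cadherin-negative cells (right), with circles for the probe set used for the gene, squares for the others and open symbols for those too dim to be tested. Both probe sets of Hoxa2 (2.40 and 3.83) and of Hoxa3 (1.13 and 3.37) lie to the right of 0 in Sox1-positive cells, while those of Hoxb4 are spread on both sides.

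Of 8 tested genes of the TALE families, the partners of Hox proteins, 5 rose in Sox1-positive against ES cells and 0 fell, where 6.4% of all genes tested rose and 6.17% fell, the median change of the list being 1.10. Meis2 read 352, 323 and 366 in Sox1-positive cells against 49.7, 57.6 and 64.9 in ES cells (2.31, adjusted p = 0.000333 by limma). Meis3, Pbx3, Pknox2 and Pbx2 rose by 2.15, 1.80, 1.38 and 0.81. Meis1, Pbx4 and Pknox1 did not pass (-0.11, 0.50 and -0.53; adjusted p = 0.88, 0.18 and 0.11 by limma), Meis1 with 921, 704 and 549 in Sox1-positive cells and 1033, 699 and 624 in ES cells. Meis2 and Pbx3 had 226 and 1656 in day 2 E-cadherin-negative cells, above their ES ranges.

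Of 9 tested regulators of hindbrain segments 7 rose in Sox1-positive cells and 0 fell (median 1.80), beside the same 6.4% and 6.17% of all genes. Gbx2, which did not pass, read 382, 1595 and 538 in Sox1-positive cells and 233, 2296 and 2727 in ES cells (-0.72, adjusted p = 0.69 by limma). Nr2f1 and Nr2f2, orphan nuclear receptors, rose by 5.59 and 3.24, Irx3 by 3.29, and the Eph receptor and ephrin genes Epha7, Efnb2 and Epha4, which keep cells of neighbouring segments apart, by 2.71, 1.80 and 1.09. Egr2 (Krox20), the factor of rhombomeres 3 and 5 that acts on Hoxa2 and Hoxb2, rose by 1.57 (adjusted p = 0.0112 by limma). It read 669, 318 and 545 in Sox1-positive cells and 148, 138 and 178 in ES cells. It was as bright in day 2 E-cadherin-positive (567) and day 3 Sox1-negative cells (560), where Hoxa2 and Hoxb2 were at their ES levels. The part of Egr2 in the values of these genes was not tested. Of 8 tested forebrain and midbrain genes 1 rose, Fezf2 (0.97, adjusted p = 0.0449 by limma), and 0 fell.

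In the retinoic acid pathway 5 of 14 tested genes rose and 2 fell, beside 6.4% and 6.17% of all genes tested. The rises were those of the binding proteins Crabp1 (4.64) and Crabp2 (4.01), of Cyp26a1, which degrades retinoic acid (1.33), of the receptor Rxra (1.25) and of the receptor corepressor Nrip1 (1.09). The receptor Rarg fell by 3.83 and Stra8 by 2.62. Rarg read 49.9, 68.1 and 29.5 in Sox1-positive cells, 94.3 in day 2 E-cadherin-negative cells and 574 to 1304 in the other samples, so it was low in the samples in which Hoxa2 and Hoxb2 were high. Among 11 tested factors of caudal identity, with the same shares over all genes beside them, 1 rose (Gdf11, 1.64) and 2 fell (Fgf4, by 1.79, and Fgf17, by 1.47), while Cdx1, Cdx2 and Cdx4, the activators of trunk Hox genes, were too dim to be tested, at 6.35 to 108.

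Of 25 tested Polycomb and Trithorax genes, whose products keep Hox clusters silent or active, 3 rose (Phc2 by 1.86, Cbx2 by 1.61 and Ring1 by 0.92) and 2 fell (Phc1 by 1.28 and Eed by 1.20), with a median change of 0.00. Among all genes tested 6.4% rose and 6.17% fell, and nothing is read from the counts of this list. Of the other homeobox genes of the ParaHox and NK groups 0 of 4 tested passed.

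**Figure D5:**
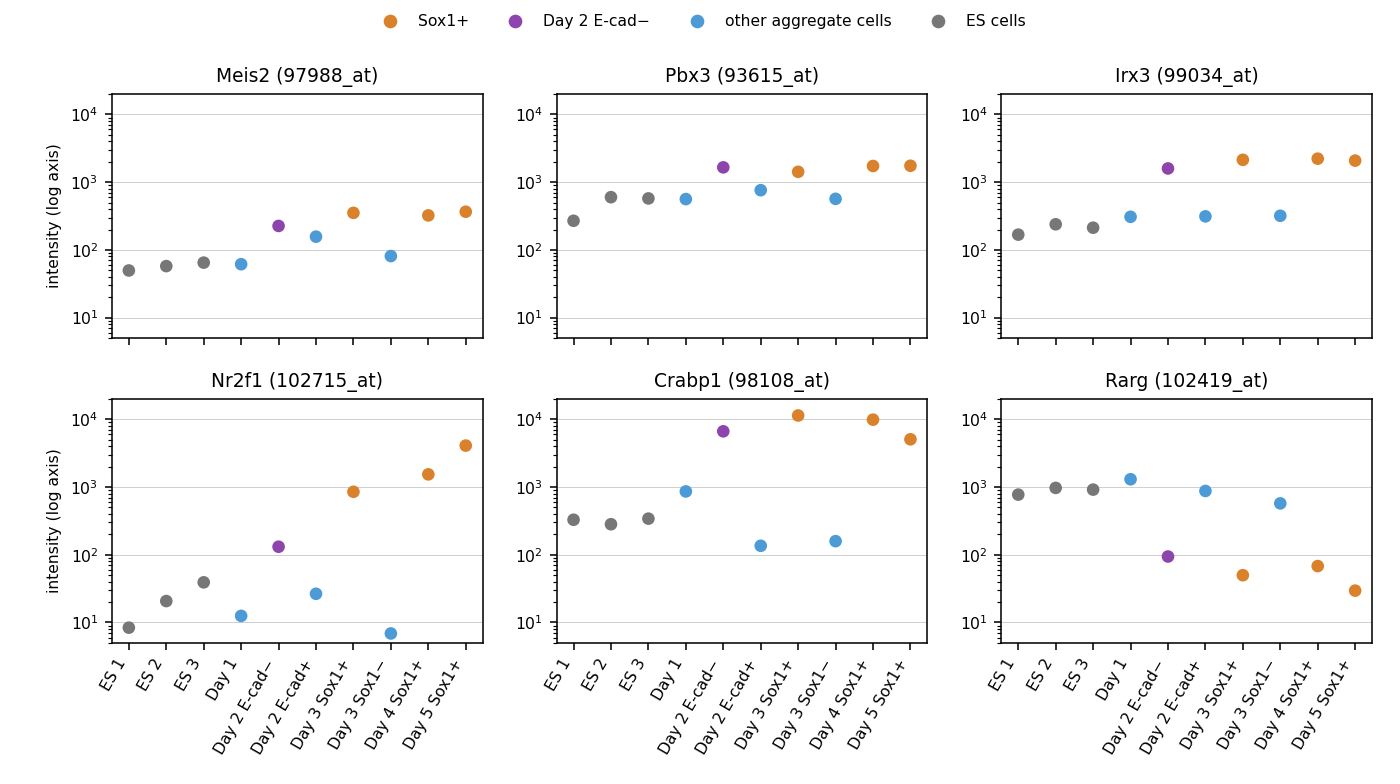
Intensity (log axis) in each of the 10 samples of 2 Hox partners (Meis2, Pbx3), 2 hindbrain regulators (Irx3, Nr2f1) and 2 genes of the retinoic acid pathway (Crabp1, Rarg), coloured by Sox1-positive, day 2 E-cadherin-negative, other aggregate and ES cells. Crabp1 lies at 5075 to 11405 in Sox1-positive cells and at 283 to 342 in ES cells, and Rarg runs the other way.

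Markers of other cell types moved with some of these values. In day 2 E-cadherin-negative cells 5 of 9 neuron markers were higher than in ES cells by 1 or more, as were 7.33% of all genes. The sum of the neuron markers was 11475 there, beside 7285 to 15462 in Sox1-positive cells and 6539 to 7811 in ES cells. The neural crest marker Ednrb read 2093, 3568 and 9061 in Sox1-positive cells of days 3, 4 and 5, 889 in day 2 E-cadherin-negative cells and 20.5 to 91.2 in ES cells, while Foxd3 and Erbb3, of the same list, fell. Of 8 tested mesoderm markers 0 rose in Sox1-positive against ES cells and 1 fell (Tcf15, -1.94, adjusted p = 0.00123 by limma). Of 9 tested endoderm markers 1 rose (Cxcr4, 2.47, adjusted p = 0.0036 by limma) and 0 fell, where 6.4% of all genes tested rose and 6.17% fell. The sum of the 12 fibroblast or feeder markers was 2574 to 2998 in Sox1-positive cells and 2511 to 5460 in ES cells, and 0 of 9 tested passed, with Acta2 at 216, 2490 and 1760 in ES 1, ES 2 and ES 3, and ES 1 held the lowest ES value in the probe sets used for Hoxa2, Hoxa3 and Hoxb4. In the second probe sets of Hoxa2 and Hoxa3 and in 2 others of Hoxb4 it held the highest. The part of these cell types in the Hox values was not tested.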

How the data were processed

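RNA of 10 samples was measured on 3 Affymetrix chips each. The values used are linear intensities per probe set as deposited, already scaled by the authors (the 2% trimmed mean was 500.108 to 500.281 on each array); how probe signals were summarised and background-corrected is not given in the sources used here. Of 36899 probe sets 198 controls were left out. Probe sets were named through the platform tables (29131 named 1 gene, 724 several, 6846 none), and symbols were updated by Entrez ID to RefSeq (GRCm38.p6). For each gene the probe set with the highest mean of log2(intensity + 16) was used. The pseudocount of 16 understates changes of dim genes. Probe sets with a mean intensity under the 30th percentile of the chip (78.6, 117 and 102) were not tested, which left 25690.

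Groups were compared with limma 3.58.1 (R 4.3.3; lmFit and eBayes per chip, Benjamini-Hochberg over the 3 chips together), tested on simulated data first. Lone samples were compared with ES cells in a fit of 8 groups. Every Hox gene was named, with values by sample for those called or reaching the chip median in any sample, and of 7 pathway and 8 marker lists the genes called, up to 5 each way. Neighbours, antisense transcripts and Hox copies may share probes. Motifs were found by exact match in RefSeq windows.

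The Hox genes, their classes and the lists were chosen with earlier results of these data known. Alternatives were quantile and 75th percentile scaling, pseudocounts of 1 and 64, other filters, leaving out each sample, a mean-variance trend, adjustment within chips, the mean over probe sets and other class borders. Leaving out ES 3 and day 5 together was added after the data were seen. Figures were drawn with matplotlib 3.10.9 in Python 3.11.15.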

Additional observations from a re-analysis of the deposited data

Results flagged for a closer look

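Among the 4 aggregate samples not sorted as Sox1-positive, Hoxd9 in day 3 Sox1-negative cells (89.4) lay apart from the rest: the gap to the nearest other sample was 0.892 of the whole range of the 4. Chance picks out about 1 in 20 such groups, and 33 genes were examined. Hoxd9 was too dim to be tested.

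A probe set that the annotation gives to both Hoxa7 and its neighbouring transcript Mira, and which no comparison above used, read 362 in day 2 E-cadherin-negative cells and 328.1 in day 3 Sox1-positive cells, more than double the highest ES value (54.1 to 147 in ES cells), and 63.6 and 50.4 in day 4 and day 5 Sox1-positive cells. The probe set of Hoxa7 alone stayed at 9.54 to 29.8, and which of the 2 transcripts gave the signal was not tested.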

How the results depend on the processing

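No result changed sign as a called value under the alternatives run. The 5 Hox genes higher in Sox1-positive than in ES cells were 3 with the filter at the 60th percentile, 3 with adjustment within each chip and 3 without ES 3 and day 5 (added later), and 2 to 5 when 1 sample was left out (2 without ES 2, day 4 or day 5, 3 without day 3). Hoxb1 and Hoxb2 were called in all 16 and 17 alternatives in which they were tested, Hoxa2 in 11 of 17 (adjusted p 0.00210 to 0.0783 by limma), Hoxa3 in 12 of 16 (0.00137 to 0.0824) and Hoxb4 in 9 of 17 (0.0110 to 0.117). Against the other aggregate cells the count of 0 was 0 to 4 when 1 sample was left out, with 4 without day 2 E-cadherin-negative cells.

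For lone samples against ES cells, day 2 E-cadherin-negative cells gave 1 with a pseudocount of 64, 1 with the 60th percentile filter, 1 with a mean-variance trend and 0 to 3 when an ES sample was left out (3 without ES 1). Day 3 Sox1-positive cells gave 1 under quantile normalization, 0 with a pseudocount of 1, 0 with no filter, 1 with the 60th percentile filter, 1 without ES 3 and day 5 and 0 to 2 with an ES sample left out. Day 4 gave 1 under quantile normalization, 1 under 75th percentile scaling, 1 with a pseudocount of 1, 0 with no filter, 1 with the 60th percentile filter and 0 to 2 in the leave-outs. Day 5 gave 1 with no filter, 1 with the 60th percentile filter and 0 to 3 in the leave-outs.

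Class medians in Sox1-positive cells moved to 2.45 (3-prime as paralogues 1 to 3), 0.56 (1 to 5) and 0.66 (mean over probe sets) for 3-prime and to 0.030 (1 to 5) for middle members. The leave-out range was 1.63 to 1.94 for 3-prime, -0.051 to 0.17 for middle and -0.25 to -0.03 for 5-prime members. In day 2 E-cadherin-negative cells 3-prime members moved to 2.03 (paralogues 1 to 3), 1.30 (pseudocount 64) and 1.31 (mean over probe sets). Middle members moved to 0.53 (paralogues 1 to 3 as 3-prime), 0.37 (1 to 5), 0.42 (quantile normalization), 0.90 (pseudocount 1) and 0.34 (pseudocount 64), and 5-prime members to 0.17 (mean over probe sets). Leave-out ranges were 1.51 to 1.62, 0.47 to 0.76 and -0.27 to 0.14 for 3-prime, middle and 5-prime members. In the sorts, the day 2 counts became 4 higher at a difference of 2, and 1 lower under quantile normalization and 1 lower with a pseudocount of 1. The 2 lower at day 3 became 0 at a difference of 2, 4 with a pseudocount of 1 and 1 with a pseudocount of 64. The causes were not tested.

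No paired analysis was possible because every aggregate group had 1 sample. With 7 of 8 groups unreplicated and 12 of 33 Hox genes below the level for testing, small changes and the dim 5-prime genes were beyond reach.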
